A study of Rattus norvegicus with 18 samples.

Results

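The heavy chain of an antibody is built from gene segments, and the genes described here lie in a run of short genes on rat chromosome 6 taken as the variable (V) segments of that chain. Members were chosen by position and count: genes on chromosome 6 (mRatBN7.2) whose lowest start lay between 133700000 and 136500000, with at least 10 counts summed over all 18 libraries. Of 79 annotated genes in the window 62 met the rule, out of 30562 genes in the table. The summed count of each gene therefore chose the members and is given only as a description. Just inside the threshold lay ENSRNOG00000068696 and ENSRNOG00000070047, with 12 counts each. Just outside it lay ENSRNOG00000069750, ENSRNOG00000068413, ENSRNOG00000068059 and ENSRNOG00000006321, with 8 counts each. Of the 17 genes left out, 8 had 0 counts and 9 had between 1 and 9.

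During B cell development a single V segment is joined to a D and a J segment, and the joined exon is then spliced to the exons of a constant region. Each B cell clone and the plasma cells that descend from it thus transcribe mostly a single rearranged heavy chain V gene, so the counts over V genes in a piece of tissue reflect which V genes its clones carry and how much transcript each clone makes. The intestinal wall holds many plasma cells, which mostly secrete immunoglobulin A, and organised follicles of B cells whose number varies along the gut.

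The study measured poly(A)-selected RNA of intestine from wild-type Sprague-Dawley rats, an outbred stock, in 3 groups of 6 libraries. Control rats were untreated, irradiated rats were exposed once to 10 Gy of X-rays, and the irradiated plus formula group was exposed in the same way and then given Changbing Formula, whose composition, dose and duration the labels do not state. The labels give neither the gut segment nor the sex, age or time after irradiation, and whether whole animals or the abdomen were exposed is likewise not given. The free-text description of all 18 libraries says untreated, so groups were taken from the titles, and since the labels do not state that each library is a separate animal, p-values measure the spread between these libraries, which may in part be technical.

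Library totals lay between 33598572 and 48398184 counts, a range far narrower than that of the window. Both reads of a pair were largely counted: between 75.0% and 100% of the small counts of window genes in each library were even. Intervals and limits below were therefore computed on counts divided by 2, and they cover counting error only. In whole tissue, fewer cells of a type and less RNA per cell cannot be told apart. Control 2, irradiated 4 and irradiated plus formula 4 stood apart from the other libraries of their groups in the summed level of the window, and values below are given with and without them where they matter.

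The label was checked by the shape of the genes, because 0 of the Ensembl IDs could be paired with a symbol. All 62 members lay on the reverse strand. Of these, 43 had 2 exons and 15 had 1 exon, and the exonic length was 297 to 783 bases with a median of 399.5. Another 3 had 3 exons, among them ENSRNOG00000069444, and ENSRNOG00000068111 had 4. A typical member spanned 494.5 bases (median), and the median distance between neighbouring members was 36583 bases. While 59 spanned under 800 bases, ENSRNOG00000068111 (134328064 to 134358517) and ENSRNOG00000055169 (135538767 to 135568573) were far longer. The usual layout of V segments is a short leader exon and a longer V exon, repeated along a single strand. The lengths of single exons were not examined, so the check covers exon number, total length, span and strand. The RefSeq gene table, on the other rat assembly GRCr8, lists 146 V segments and 4 constant regions on chromosome 6. Genes of this shape with at least 10 counts continued beyond the window: 16 of them with 8941 counts were found within 1000 kb below it and 8 with 2918 counts within 500 kb above it, so the window does not hold the whole run. A single member, ENSRNOG00000067682, shared exon sequence with a gene on the opposite strand, ENSRNOG00000006321, and without strand its reads cannot be assigned with certainty. Near-identical V genes are a wider uncertainty: reads that align to several genes were not counted, so a gene's count depends on how distinct its sequence is, and how many reads were left out in this way was not tested.

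The summed level of the 62 genes differed 359-fold between the highest and the lowest library. It is given in CPM, counts scaled to the library total with TMM factors. In control libraries 1 to 6 the level was 9.10, 422, 6.21, 18.3, 17.3 and 8.56 CPM. In irradiated libraries 1 to 6 it was 10.5, 65.4, 137, 532, 4.18 and 5.26 CPM. With the formula it was 3.99, 10.3, 3.22, 78.1, 1.48 and 3.14 CPM. The 3 groups overlapped: irradiated 4 and control 2 were the highest of all 18 libraries, while irradiated 5 and 6 were below every control library, and 4 of the 6 formula libraries were below every library of both other groups.

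**Figure D1:**
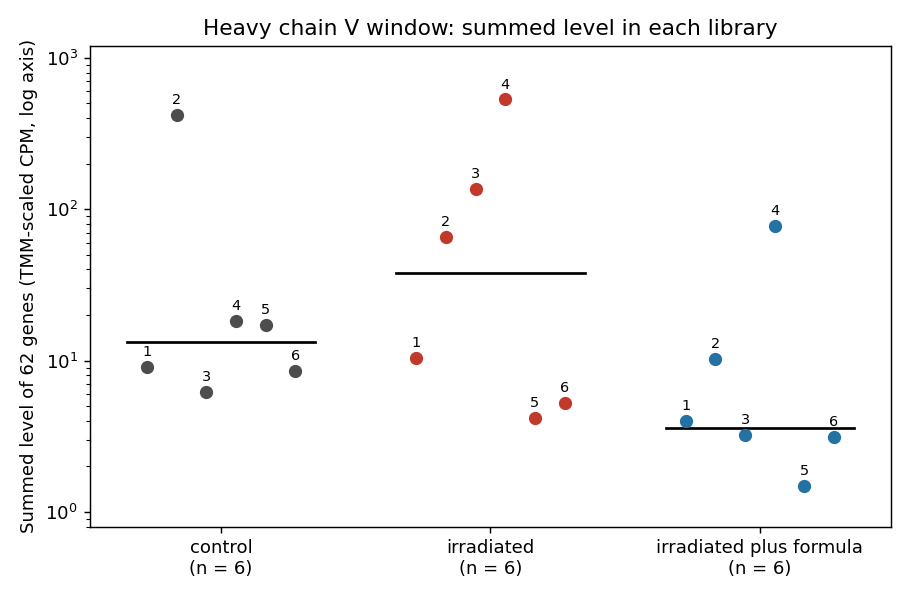
Summed level of the 62 window genes (TMM-scaled CPM, log axis) in each library of the 3 groups, with the replicate number above each point and a bar at the group median. Control 2 (422 CPM), irradiated 4 (532 CPM) and irradiated plus formula 4 (78.1 CPM) lie above the other libraries of their groups, and the groups overlap.

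Group means followed those libraries. The control mean was 80.3 ± 168 CPM, the irradiated mean 126 ± 206 CPM and the formula mean 16.7 ± 30.2 CPM (SD, n = 6 each), so each SD was larger than its mean. Medians were 13.2, 38.0 and 3.61 CPM in the same order. Without control 2 the control mean was 11.9 CPM and the median 9.10 CPM. Leaving out irradiated 4 gave a mean of 44.5 CPM and a median of 10.5 CPM in the irradiated group. The formula group without its library 4 had a mean of 4.43 CPM and a median of 3.22 CPM. The formula group thus had the lowest median with and without these libraries, whereas its mean of 16.7 CPM was above the control mean once control 2 alone was left out. Differences in the summed level were not tested.

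A further run of 66 genes shaped like V segments, on chromosome 4 between 98 and 110 Mb, varied with the window from library to library. Its summed level ran from 5.27 to 457 CPM in control, from 3.55 to 563 CPM in irradiated and from 3.14 to 84.6 CPM in formula libraries, and its highest libraries were again control 2, irradiated 4 and irradiated plus formula 4. The ratio of the window to that run lay between 0.386 and 1.68 in all 18 libraries. A gene of 29 exons, ENSRNOG00000034190, lies below the window on the same strand at 132329269 to 133053426 and had 245009 counts. It was picked as the nearest gene of many exons below the window, whose first position is 133700000, and does not border it. What it encodes is not established here. The window's counts were between 0.0807 and 0.486 times those of this gene in 17 libraries and 1.31 times in irradiated 2. Irradiated 2 thus had 65.4 CPM in the window beside 49.9 CPM of the many-exon gene, where control 2 had 422 beside 1529 CPM and irradiated 4 had 532 beside 1912 CPM.

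Usage was spread over many genes but far from evenly. Member totals ran from 12 to 4563 counts with a median of 763. Of the 62 members, 23 had at least 1000 counts and 9 had fewer than 100, and the 5 highest took 31.1% of all 65108 counts. Of these counts 74.2% came from control 2 and irradiated 4, so a total mostly describes those libraries. The highest library by CPM was irradiated 4 for 38 members and control 2 for 18. The other 6 members peaked elsewhere: ENSRNOG00000066892 and ENSRNOG00000065283 in irradiated 2, and ENSRNOG00000049870, ENSRNOG00000070816, ENSRNOG00000063672 and ENSRNOG00000063171 in irradiated 3.

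Of the members by mean level, ENSRNOG00000069444 (134596525 to 134597057) was first with 5.28 ± 12.1 CPM (SD, n = 18). ENSRNOG00000030812 (134488094 to 134488587) followed with 4.76 ± 11.3 CPM and ENSRNOG00000066380 (134657094 to 134657417) with 4.74 ± 8.64 CPM. The SD of each exceeded its mean. These SDs include the spread of the whole window between libraries, so they cannot decide the order among the genes, which was not tested. ENSRNOG00000065952 (134233902 to 134234416) had 4.47 ± 7.55 CPM and ENSRNOG00000064207 (134451511 to 134452137) had 4.22 ± 8.19 CPM. These 5 lie close together, between 134233902 and 134657417. The next 5 had means between 1.92 and 3.69 CPM: ENSRNOG00000069868, ENSRNOG00000063713, ENSRNOG00000062657, ENSRNOG00000070933 and ENSRNOG00000062915. Per kilobase of exon, the scale on which genes of different length can be compared, ENSRNOG00000066380 was highest with 14.6 CPM per kb and ENSRNOG00000069444 next with 14.3, against a median of 1.94 and a lowest value of 0.0433 over the 62 members.

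Averaging shares instead of levels weighs the libraries equally and changed the order. A share here is a gene's percent of all window counts in a library. ENSRNOG00000066380 had the highest mean share, 10.8%, followed by ENSRNOG00000065952 with 8.60% and ENSRNOG00000069444 with 8.02%. ENSRNOG00000066380 was also the most widely detected member, with at least 4 counts in 17 of 18 libraries. No member reached 4 counts in all 18. In at least 9 libraries 28 members reached it, and 14 members did so in at most 5.

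**Figure D2:**
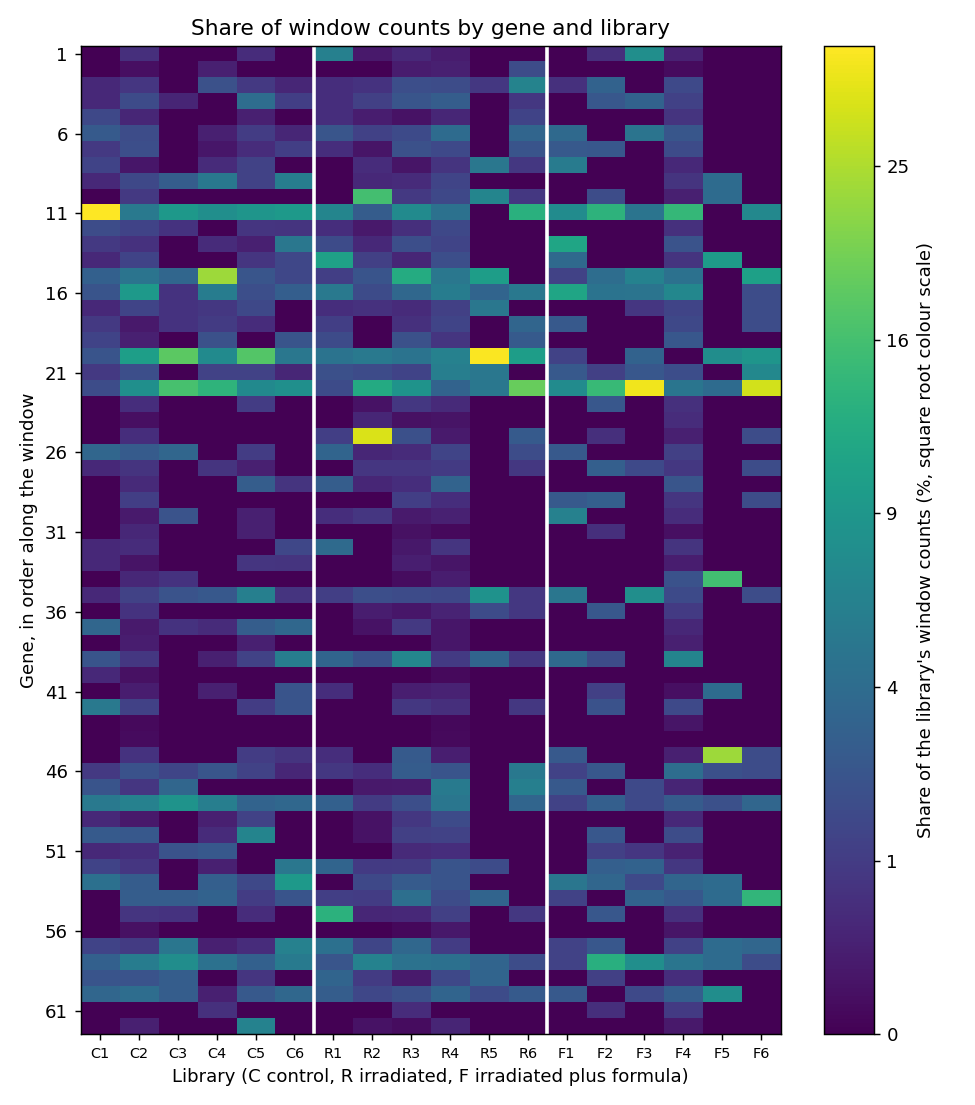
Share of each library's window counts (colour, percent, square root scale) taken by each of the 62 genes, in order along the window (vertical axis), for the 18 libraries (horizontal axis, C control, R irradiated, F irradiated plus formula). A few genes recur as bright bands across groups, among them genes 11, 20 and 22 (ENSRNOG00000065952, ENSRNOG00000069444 and ENSRNOG00000066380), while other bright cells belong to 1 library each.

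The leading gene, the one with the largest share, differed between libraries. Across the 18 libraries 8 different genes led, counting the first of tied genes. ENSRNOG00000069444 led in 5 libraries: control 2, 3 and 5 and irradiated 4 and 5. ENSRNOG00000066380 led in irradiated 6 and in irradiated plus formula 2, 3 and 6. ENSRNOG00000065952 led in control 1, control 6 (tied with ENSRNOG00000030235) and irradiated plus formula 4, and ENSRNOG00000064207 in control 4 and irradiated 3. The leading gene was ENSRNOG00000029776 in irradiated 1, ENSRNOG00000065283 in irradiated 2, ENSRNOG00000068111 (tied with ENSRNOG00000030812) in irradiated plus formula 1 and ENSRNOG00000063672 in irradiated plus formula 5. No gene led in all 6 libraries of any group.

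The size of the leading share ranged from 6.25% to 32.4%. The highest was that of ENSRNOG00000065952 in control 1, 32.4% of 457 counts, with an exact 95% binomial interval from 26.4% to 39.0%. That of ENSRNOG00000065283 in irradiated 2 was 28.8% of 2763 counts (exact interval 26.4% to 31.3%). The lowest was that of ENSRNOG00000069444 in irradiated 4, 6.25% of 29160 counts (exact interval 5.86% to 6.65%). In thinly covered libraries the interval was wide, as for ENSRNOG00000063672 in irradiated plus formula 5, where 12 of 51 counts gave 23.5% (exact interval 9.36% to 45.1%). Groups did not separate: the mean leading share was 18.5% ± 8.61 in control, 18.6% ± 10.0 in irradiated and 20.5% ± 8.15 in formula libraries (SD, n = 6 each). The leading share was not corrected for depth and can be too high in libraries with few counts.

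Evenness was summarised as the effective number of genes, the inverse Simpson index, which is the number of equally used genes that would give the same concentration. In control libraries 1 to 6 it was 8.08, 21.4, 10.8, 9.76, 15.5 and 18.5. In irradiated libraries it was 17.9, 7.47, 20.7, 29.3, 7.12 and 11.8. With the formula it was 16.95, 13.8, 7.60, 21.1, 8.70 and 7.54. All groups overlapped, with means of 14.01 ± 5.31, 15.7 ± 8.64 and 12.6 ± 5.62 (SD, n = 6), which differ by less than the spread within any group. The index was not corrected for depth and can be too low in libraries with few counts. Median window counts were 623.5 in control, 1561 in irradiated and 143 in formula libraries, so these means do not compare the groups at equal depth. Irradiated 2 stood out among the libraries with many counts: it had 2763 window counts and an effective number of 7.47, where the other 4 libraries with at least 1000 window counts had 20.7 to 29.3.

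**Figure D3:**
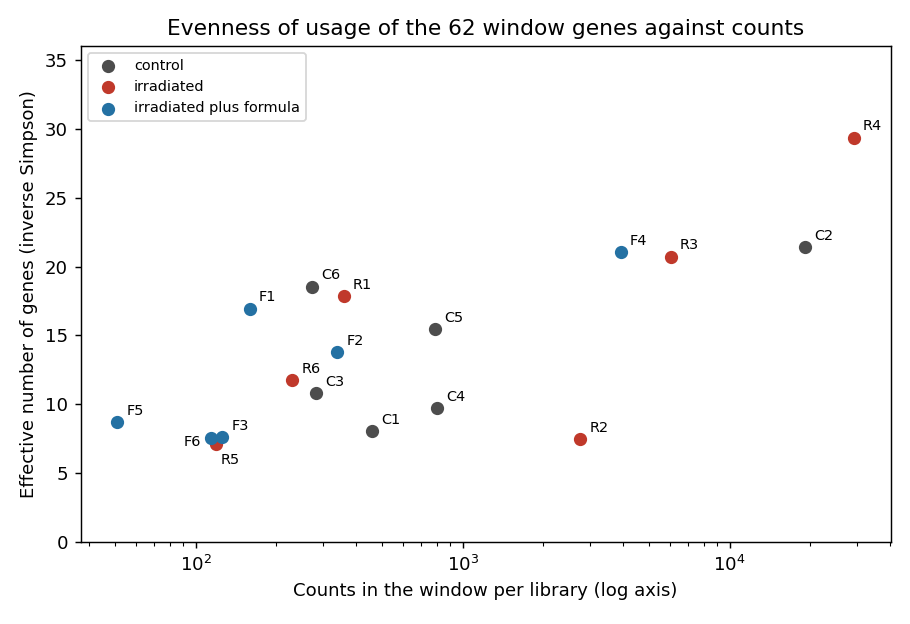
Effective number of genes (inverse Simpson index, vertical axis) against window counts per library (horizontal log axis) for the 18 libraries, labelled by group letter and replicate. Irradiated 2 (R2) lies at 7.47 with 2763 counts, below the other libraries with at least 1000 counts, which lie at 20.7 to 29.3.

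The number of genes detected, with at least 4 counts, followed the number of window counts. It was 17 to 61 in control (median 26), 13 to 61 in irradiated (median 32) and 5 to 56 in formula libraries (median 15.5). The 61 genes of control 2 and of irradiated 4 came from 19143 and 29160 window counts, and the 5 genes of irradiated plus formula 5 from 51 counts. After every library was thinned to 51 counts, the expected number of genes was 20.4 ± 3.06 in control, 20.6 ± 4.61 in irradiated and 18.8 ± 4.23 in formula libraries (SD, n = 6 each). Single counts were drawn although most came in pairs, so depth was not fully equalised. The 51 counts of irradiated plus formula 5 were about 25 read pairs, and thinned values of libraries with few counts can be too low. The unthinned means were 31.5 ± 16.1, 35 ± 19.9 and 21 ± 18.8, and with or without thinning they differed by less than 1 SD.

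Usage of single genes could be compared firmly only in the 5 libraries with at least 1000 window counts, which were control 2, irradiated 2, 3 and 4 and irradiated plus formula 4. Over the 10 pairs of these, the share of usage in common (the sum over genes of the lower of the pair's shares) was 40.1% to 74.4%. It was highest between control 2 and irradiated 4 and lowest between irradiated 2 and irradiated plus formula 4. All 4 pairs with irradiated 2 lay between 40.1% and 48.5%, and the 6 others between 62.8% and 74.4%. Spearman's rho over the 62 genes, which are not independent replicates, was between 0.51 and 0.81.

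Among the 23 members with at least 1000 counts, the highest share in these 5 libraries was 1.45 to 175 times the lowest, with a median of 5.60 times, leaving out the single member at 0 in a library. The most even member over all 18 libraries was ENSRNOG00000069868 (136250562 to 136251132), with a coefficient of variation of its share of 0.599. In the 5 libraries, of which 1 was control and 1 formula, it took 4.37% to 6.33%. Over all 18 libraries its share ran from 1.25% in irradiated plus formula 1 to 12.9% in irradiated plus formula 2, both with under 1000 window counts. ENSRNOG00000063713 was next, with a coefficient of variation of 0.627. At the other end, 5 members varied more than 10-fold: ENSRNOG00000065283, ENSRNOG00000066892, ENSRNOG00000069751, ENSRNOG00000063523 and ENSRNOG00000066281, the last 3 named after their values were seen.

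The most uneven genes were those of irradiated 2. ENSRNOG00000065283 (134800826 to 134801328) took 796 counts there, a share of 28.8%, and 0.165% in irradiated 4, where the window as a whole was highest. Its level in irradiated 2 was 18.9 CPM, and the highest control library had 2.38 CPM. ENSRNOG00000066892 (134160101 to 134160632) took 438 counts and 15.9% in the same library, against 0.255% in irradiated plus formula 4. They held the first and the second place in irradiated 2, the library with the low effective number. Among the 5 libraries, ENSRNOG00000069751 (135848437 to 135848907) was highest in irradiated 4, with 1601 counts and 5.49%, against 0.815% in control 2, 0.357% in irradiated plus formula 4, 0.166% in irradiated 3 and 0.145% in irradiated 2. Its share was not high in irradiated 4 alone: among libraries with fewer window counts it was 6.09% in irradiated 6 (14 of 230 counts) and 3.55% in control 3 (10 of 282).

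A gene could also be at 0 in a library with many counts. ENSRNOG00000063171 (136426338 to 136427045) had 0 of 19143 window counts in control 2, which allows a share of up to 0.0313%, and 0 of 29160 in irradiated 4, which allows up to 0.0206%. Irradiated 2 also had 0, which allows up to 0.217%. Yet it had 32 counts (0.532%) in irradiated 3 and 36 counts (0.919%) in irradiated plus formula 4. Small counts were also present in control 4 (5 counts) and irradiated plus formula 2 (2 counts). The gene, named after its values were seen, was therefore present in libraries of all 3 groups and not detectable in the 2 libraries with the most window counts. Of the 62 members, 19 had 0 counts in at least 1 of the 5 libraries.

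**Figure D4:**
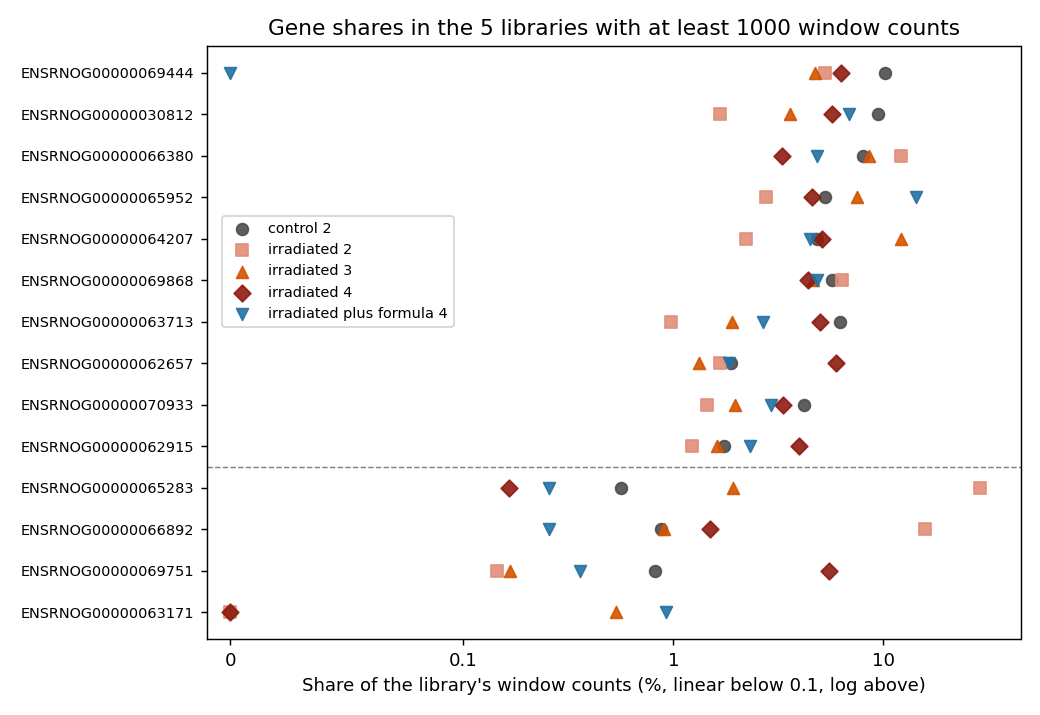
Share of window counts (percent, horizontal axis, linear below 0.1 and log above) in the 5 libraries with at least 1000 window counts, for the 10 genes with the highest mean CPM (above the dashed line) and 4 genes with uneven shares (below it). ENSRNOG00000069444 is at 0 in irradiated plus formula 4 and at 4.70% to 10.1% in the others, and ENSRNOG00000063171 is at 0 in control 2, irradiated 2 and irradiated 4, whose markers overlap.

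The comparisons of the design asked whether irradiation changed the level of these genes and whether the formula did so after irradiation. The comparisons share libraries: irradiated libraries enter the first and the second, control libraries the first and the third, and formula libraries the second and the third. Only 26 of the 62 members passed the filter on low counts, which the libraries with high levels helped to pass. A direction shared by the members tested may thus be partly set by the filter. Without it, the median log2 fold change over all 62 members was 0.58 for irradiated against control. It was -2.72 for irradiated plus formula against irradiated and -2.11 for irradiated plus formula against control. Counts below from edgeR and limma-voom on all libraries are of the 26 members that passed, while DESeq2 gave a p for 20 of them and an adjusted p for 20, 19 and 19 in the 3 comparisons.

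Between irradiated and control libraries 0 members were called by edgeR's quasi-likelihood test at an adjusted p below 0.05, beside 0% of the 16593 genes tested. At an unadjusted p below 0.05 there were 0 members, beside 1.93% of all genes. DESeq2 called 0 members, beside 0% of genes. Limma-voom with quality weights also called 0, beside 0% of genes, and had 2 members at an unadjusted p below 0.05, beside 11% of genes. The fitted value was higher in irradiated libraries for 22 members and lower for 4, with a median log2 fold change of 0.56, against 0.01 over all genes. That median was 3.57 without control 2 and -0.73 without irradiated 4, so its direction rested on single libraries. Without control 2, 20 of 30 members tested had an unadjusted p below 0.05, beside 12.7% of genes in that fit, and 0 were called. Control 2 had the highest window level of its group, so its removal lowers the control values of most members. These members largely rise and fall together and are not separate results.

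For that comparison, the members of lowest p in either direction were far from the threshold. ENSRNOG00000068279 (134906155 to 134906642) ran from 0 through a median of 0.0313 to 1.98 CPM in control and from 0 through 0.264 to 17.5 CPM in irradiated libraries, groups that overlap. Its log2 fold change was 2.89 (SE 1.91, edgeR adjusted p = 0.998), and it was -0.68 without irradiated 4, its highest library. ENSRNOG00000064886 (134815963 to 134816608) ran from 0 through 0.198 to 11.1 CPM in control and from 0 through 0.293 to 7.23 CPM in irradiated libraries. Its log2 fold change of -0.46 (SE 1.62, edgeR adjusted p = 0.998) became 3.28 without control 2.

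Between irradiated plus formula and irradiated libraries 0 members were called by edgeR, beside 0% of all genes. An unadjusted p below 0.05 was found for 3 members, beside 5.59% of all genes. DESeq2 called 1 member, which was lower with the formula, beside 0.0501% of genes. Limma-voom called 0, beside 0% of genes, and had 3 members at an unadjusted p below 0.05, beside 5.18% of genes. The fitted value was lower with the formula for all 26 members tested, with a median log2 fold change of -2.85, against -0.02 over all genes. This median was -1.26 without irradiated 4 and -4.96 without irradiated plus formula 4. In the latter fit 25 of 26 members had an unadjusted p below 0.05, beside 8.66% of genes, and again 0 were called. The library left out had the highest window level of its group, so its removal lowers the formula values of most members. Members largely rise and fall together between libraries, so they are not separate results.

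The member called by DESeq2 was ENSRNOG00000069444, the gene with the highest mean level of the 62. In irradiated libraries 1 to 6 it stood at 0.496, 3.46, 6.45, 33.3, 1.34 and 0.526 CPM. With the formula it stood at 0.050, 0, 0.102, 0, 0.116 and 0.275 CPM. In control it stood at 0.199, 42.8, 1.12, 1.37, 2.99 and 0.438 CPM. All 6 formula libraries were thus below all 6 irradiated libraries, and 5 of them were below all control libraries, formula 6 being the exception. It was the single member among the 26 that was lower without overlap between these groups, beside 0.108% of all genes tested.

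Its log2 fold change with the formula against irradiated was -6.37 (SE 1.61, unadjusted p = 0.00099, edgeR adjusted p = 0.770). In DESeq2 it was -6.45 (SE 1.23, adjusted p = 0.00058). Under the 24 other alternatives the fold change lay between -7.09 and -4.66 and the adjusted p between 0.560 and 0.9999, so the call was made by DESeq2 and by no other fit run. The gene was picked out here by its DESeq2 call, so its lack of overlap with irradiated libraries is no separate support. Its counts in formula libraries 1 to 6 were only 2, 0, 4, 0, 4 and 10. The other members at an unadjusted p below 0.05 were ENSRNOG00000063713, with a log2 fold change of -3.49 (SE 1.65, edgeR adjusted p = 0.770), and ENSRNOG00000064873 (136072637 to 136073129, named after its values were seen), with -3.65 (SE 1.70, edgeR adjusted p = 0.770). Both overlapped between the groups: ENSRNOG00000063713 ran from 0 through a median of 0.480 to 26.6 CPM in irradiated and from 0.0291 through 0.0807 to 2.09 CPM in formula libraries, and ENSRNOG00000064873 from 0 through 0.483 to 11.6 CPM and from 0 through 0.0512 to 0.678 CPM.

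The share of ENSRNOG00000069444 set its counts against the window's counts in the same library. As it used the same counts, the share is no separate support. It was 2.19%, 10.1%, 18.1%, 7.46%, 17.3% and 5.11% in control and 4.74%, 5.28%, 4.70%, 6.25%, 31.9% and 10.0% in irradiated libraries. In formula libraries it was 1.25%, 0%, 3.17%, 0%, 7.84% and 8.77%. The shares overlapped between the groups: formula 5 and 6, with 4 of 51 and 10 of 114 counts, lay within the ranges of both other groups, and formula 3 lay within that of control. The values of 0 rest on unequal depth. Formula 4 had 0 of 3919 window counts, which allows a share of up to 0.153%, and formula 2 had 0 of 340, which allows up to 1.76%. The genes on either side were present in formula 4, ENSRNOG00000029121 with 94 counts and ENSRNOG00000062657 with 72.

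Between irradiated plus formula and control libraries 0 members were called by edgeR, beside 0.0121% of all genes. An unadjusted p below 0.05 was found for 1 member, ENSRNOG00000069444, beside 5.71% of all genes. DESeq2 called the same member, beside 0.3% of genes. Limma-voom called 0 members, beside 3.01% of genes, and had 4 at an unadjusted p below 0.05, beside 21.9% of genes. Its log2 fold change was -6.47 (SE 1.62, unadjusted p = 0.00089, edgeR adjusted p = 0.571), and in DESeq2 it was -6.51 (SE 1.22, adjusted p = 0.00017). In the 24 other alternatives the log2 fold change lay between -7.20 and -3.42 and the adjusted p between 0.0973 and 0.998.

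The fitted value was lower with the formula than in control for 25 of 26 members and higher for 1. The median log2 fold change was -2.29, against -0.07 over all genes. It was 0.71 without control 2 and -4.04 without irradiated plus formula 4, so its sign turned when control 2 alone was left out. The median summed level of the window was lower with the formula than in control both with and without control 2. ENSRNOG00000070816 (135494379 to 135494919), the member with a higher fitted value, ran from 0 through 0.209 to 3.55 CPM in control and from 0 through 0.0748 to 5.18 CPM in formula libraries, with a log2 fold change of 0.30 (SE 1.55, edgeR adjusted p = 0.982). Its median was the lower in formula libraries, and without irradiated plus formula 4 its log2 fold change was -3.45.

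Window counts also varied with position. The window was divided into 4 segments of 700 kb, counted from the end nearest the many-exon gene. The first held 13 genes and 20.6% of all window counts, the second 18 genes and 40.7%, the third 14 genes and 7.18%, and the fourth 17 genes and 31.5%. By number of members these segments hold 20.97%, 29.0%, 22.6% and 27.4%, so counts were scarce for the number of genes in the third segment and plentiful in the second. Control 2 and irradiated 4 gave 74.2% of these summed counts. Reads that align to several genes were not counted, and whether this lowered the third segment was not tested.

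The third segment was below its share of members in 17 of 18 libraries, with a median of 8.70% and a range from 3.48% to 43.1%. The exception was irradiated plus formula 5, with 51 counts. The second segment had a median of 40.6% and ranged from 17.1% in control 1 to 64.9% in irradiated plus formula 6. Control 1 instead had 42.7% in the first segment, where its leading gene ENSRNOG00000065952 lies. The mean share of the second segment was 37.3% in control, 46.2% in irradiated and 40.5% in formula libraries, and libraries of all groups overlapped in every segment.

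**Figure D5:**
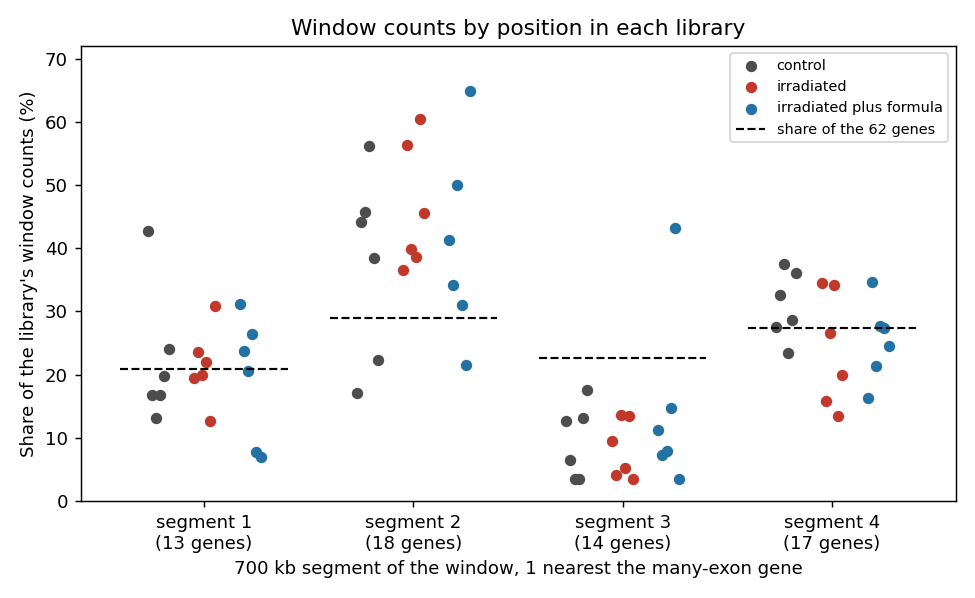
Share of each library's window counts (percent, vertical axis) in the 4 segments of 700 kb along the window (horizontal axis), by group, with a dashed line at the share of the 62 genes that lie in each segment. The third segment lies below its line in 17 of 18 libraries, and the groups overlap in every segment.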

How the data were processed

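The deposited values are raw counts for each gene in 18 libraries, which the authors made with featureCounts 2.1.1 and Ensembl release 110 of mRatBN7.2, per the file headers. The options set required both ends of a pair to align and dropped chimeric pairs. None was set for counting pairs, for strand or for multi-mapping reads. The submitters' processing notes also name fastp, FastQC, SAMtools and STAR, whose versions are not given in the sources used here. The deposited counts carry no normalization, and the number of unused columns of other samples is 0. The labels give all libraries the same batch.

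Groups came from the titles. Counts were tested in R 4.3.3 with edgeR 4.0.16 (quasi-likelihood, all 18 libraries in a single model, filterByExpr, TMM), with Benjamini-Hochberg adjustment over 16593 genes and a threshold of 0.05. SE was taken as the size of the log2 fold change over the square root of F, an approximation. CPM are TMM-scaled. Detection means at least 4 counts. Intervals are 95% Clopper-Pearson on halved counts, and the limit for a count of 0 is 3 read pairs of the window's read pairs. Precision is thus set by the window's counts, from 51 to 29160 per library. The script was tested on simulated data.

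The members, the chromosome 4 run and the lists were chosen with earlier results of these data known. Named genes were the 10 with the highest mean CPM, each library's leading gene, the member of lowest p in either direction per comparison, members called, the 2 most and 2 least even members with at least 1000 counts, and those next to the threshold of 10 counts. Alternatives were DESeq2 1.42.0, its size factors, limma 3.58.1 (voom with quality weights), no filter, a replicate block, fits of 12 libraries, other count minimums, halved counts, and libraries left out. Lists of cell type markers could not be used, since 0 IDs were paired with symbols, so the cell types in the tissue were not examined.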

Additional observations from a re-analysis of the deposited data

Results flagged for a closer look

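A library was singled out where its gap to the nearest other library of its group was a larger part of the group's range than the 95% critical value of Dixon's test for 6 values. For the summed level of the window these were control 2, with 422 CPM, irradiated 4, with 532 CPM, and irradiated plus formula 4, with 78.1 CPM. For the summed level of the chromosome 4 run the same libraries stood apart, with 457 CPM in control 2, 563 CPM in irradiated 4 and 84.6 CPM in irradiated plus formula 4. These are 6 of 15 group checks over 5 measures. For normally distributed values chance singles out about 1 in 20 groups, or 0.75 of 15. The summed levels were checked as CPM on a linear scale, where each group's SD was larger than its mean. That rate therefore need not hold for them, and log values were not checked. The checks are also not independent because both runs moved together. The effective number of genes, the leading share and the number of genes detected singled out no library.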

How the results depend on the processing

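The number of members called was 0 in all 25 alternatives between irradiated and control, and in 24 of 25 in each of the other comparisons. DESeq2 gave 1 member between irradiated plus formula and irradiated and 1 between irradiated plus formula and control, ENSRNOG00000069444 in both, and the cause was not tested. With the replicate block 0 members were called in each comparison. Of 18 same-numbered pairs of libraries 5 had a correlation over 0.1 (range -0.51 to 0.61), and the best correlation was with the own number for 4 of 18 libraries, so the numbers were not taken to pair the libraries. Leaving out each library in turn gave 0 members called throughout. The log2 fold change of ENSRNOG00000069444 for irradiated against control had no stable direction, with values from -1.73 to 2.63 in 24 alternatives. Others that turned direction were those of ENSRNOG00000068279 for irradiated against control (-0.68 without irradiated 4, the lowest value with 1 library left out, and 4.81 without control 2, the highest), ENSRNOG00000064886 for irradiated against control (0.54 in limma-voom, 3.28 without control 2 and -2.83 without irradiated 4, the highest and the lowest with 1 library left out, and 0.96 without control 2 and irradiated 4) and ENSRNOG00000070816 for irradiated plus formula against control (-2.26 with the replicate block, -3.45 without irradiated plus formula 4 and 2.28 without control 2, the lowest and the highest with 1 library left out). Leaving out 1 library can move a mean of 6 by only part of an SD, so the mean level is no test of stability: it went from 80.3 to 11.9 CPM without control 2, from 126 to 44.5 CPM without irradiated 4 and from 16.7 to 4.43 CPM without irradiated plus formula 4. Under the other scalings, count minimums and member filters run, group means and medians moved by less than 1 SD. For the summed level each SD was larger than its mean, so even a fall to 0 would have stayed within that limit. For that measure the limit cannot show stability. Leaving out irradiated plus formula 4 for these measures was chosen after seeing the data. Shares in libraries with few window counts are limited by depth: a count of 0 among 51 allows up to 12.0%.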
